A study of Homo sapiens with 6 samples.

Results

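The genes of mitosis and the spindle were examined in HK-2 cells with and without substance P (SP). A list of 50 genes (G2/M regulators, the spindle checkpoint, kinesins and centromere proteins) was looked up by gene symbol among the 16250 genes of the deposited expression table, and all 50 were found. HK-2 cells are an immortalized epithelial line from the proximal tubule of the human kidney. All cells carried the SP receptor NK-1R, encoded by TACR1, on a lentiviral vector with a CMV promoter and were selected with puromycin as a stable line. The 3 control libraries came from cells given PBS and the 3 SP libraries from cells given 20 µM SP, both for 48 h, and RNA was sequenced from whole cultures. The study asked how SP acts on the growth, cell cycle and survival of tubular cells, and the transcripts of the mitotic machinery bear on that question at the RNA level only.

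Cells enter mitosis when CDK1 bound to cyclin B becomes active. WEE1 and PKMYT1 hold CDK1 back by phosphorylation, and the CDC25 phosphatases release it. Kinetochore proteins and kinesins then attach and move chromosomes, the spindle checkpoint delays anaphase until attachment is complete, and the anaphase-promoting complex (APC/C) with CDC20 or FZR1 marks cyclins and securin for destruction. Most of these genes are transcribed mainly in G2 and M phase, under factors such as FOXM1, B-MYB and the MuvB complexes, so their level in a culture follows the share of cells in these phases as well as the RNA in each cell. From RNA of whole cultures alone, a changed share of cells in a phase and changed RNA per cell cannot be told apart. By flow cytometry, the paper reports that SP induced G2/M arrest in cells overexpressing the receptor. The dose and time there were those of the sequenced cultures. How that arrest bears on the RNA levels given here was not tested.

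The values are FPKM, fragments per kilobase of transcript, scaled to the mapped fragments of each library, so that levels of different genes are comparable per length. They were tested on the scale of log2(FPKM + 1) with limma, a linear model that steadies each gene's spread with that of genes at a like level, for the 12127 genes that reached an FPKM of 0.5 in 3 or more libraries. A gene was called higher or lower at a Benjamini-Hochberg adjusted p under 0.05 over all of these genes. Read numbers cannot be had from FPKM, and the depth of the libraries is unknown. TACR1 was at 15.7, 25.8 and 33.0 FPKM in the 3 control libraries and at 78.5, 123 and 141 FPKM in the 3 SP libraries, so that receptor RNA also differed between the groups. Of 16 proximal tubule and renal epithelial markers, 14 were among the listed genes, without LRP2 and SLC22A6. Of the 14, 9 had a mean of at least 1 FPKM, PAX8, GGT1, KRT8 and KRT18 among them. The tubule genes ANPEP, CUBN, SLC34A1 and AQP1 and the cadherin CDH1 had a mean under 1 FPKM. Of 7 fibroblast markers 5 had a mean under 1 FPKM, and the sum of all 7 was 23.5 to 29.9 FPKM in control and 15.7 to 18.1 FPKM in SP libraries, with the 2 others, COL1A1 and LUM, lower with SP (log2 fold changes -0.63 and -0.54). Of 5 endothelial markers 3 were listed, and their sum was 0.05 to 0.07 FPKM in control and 0.33 to 0.67 FPKM in SP libraries. Of 6 immune markers 4 were listed, with a sum of 113 to 117 FPKM and 108 to 115 FPKM. Nearly all of that sum was CD68, with the leukocyte gene PTPRC at 0.01 FPKM or less. Which cells the RNA of these markers came from was not tested. No source says that the libraries are of separate cultures, and the p-values stand for the spread among these 6 libraries, which may be technical.

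Most of the mitotic machinery differed little between SP-treated and control cells, and a minority of its genes was modestly lower. Of the 50 genes, all of which passed the filter, 11 were lower with SP, none was higher and 39 were not called. The 11 were the cyclins CCNA2, CCNB1 and CCNB2, the phosphatase gene CDC25C, the chromosomal passenger gene CDCA8, the kinesins KIF20A, KIF22 and KIFC1, the centromere genes CENPA and NDC80, and the APC/C activator CDC20. In these, mean FPKM was between 14.7% (CCNB1) and 42.7% (KIF20A) below control. The fit behind these calls did not pair libraries. With the replicate number as a block, 9 of the 11 were lower, without CCNB1 and CDC25C. The share of members called lower was 22.0%, against 12.0% of all genes tested and 16.0% of the 5717 genes within the members' range of mean FPKM. The share called higher was 0%, against 8.57% of all genes tested and 9.66% of those within the members' range. At an unadjusted p under 0.05, 1 of the 50 members (PTTG1) was higher and 15 were lower, against 1738 higher and 2705 lower of the 12127 genes tested. No member passed both an adjusted p under 0.05 and a 2-fold change, which 1.59% of all genes tested did. The study asked for that size of change too, but with another test, DESeq2. Its calls and these are therefore not the same set.

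The count of 11 was sensitive to single libraries and to the scale between libraries. It was 1 (KIF20A) without the second control library, 2 (KIF20A and CDCA8) without the second SP library and 5 without the third SP library. In those fits 4.99%, 3.54% and 6.85% of all genes were lower, against 12.0% with all libraries. The count was 6 after median-ratio scaling and 1 (KIF20A) when libraries were set to an equal FPKM total. With these scalings 7.61% and 6.18% of all genes were lower. The median log2 fold change of the 50 members was -0.13 and that of all genes tested was -0.05. With the 3 other scalings the members' median was -0.10 to -0.07 and that of all genes -0.035 to 0.004, and the members' median minus that of all genes was -0.082 to -0.065 with every scaling. That difference was -0.035 without the third SP library, -0.05 without the second control library and -0.115 without the first control library. Log2 fold changes of 36 members were below 0 and of 14 above it (30 to 32 below 0 with the other scalings). Of all 12127 genes tested, 7120 were below 0 and 5007 above it. Below the median of all genes lay 31 of the 50 members. In 17 members (34.0%) every SP library lay below every control library, against 26.1% of all genes tested, and in 2 (PTTG1 and KIF18A) every SP library lay above, against 15.9%. All 11 called members were among the 17.

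**Figure D1:**
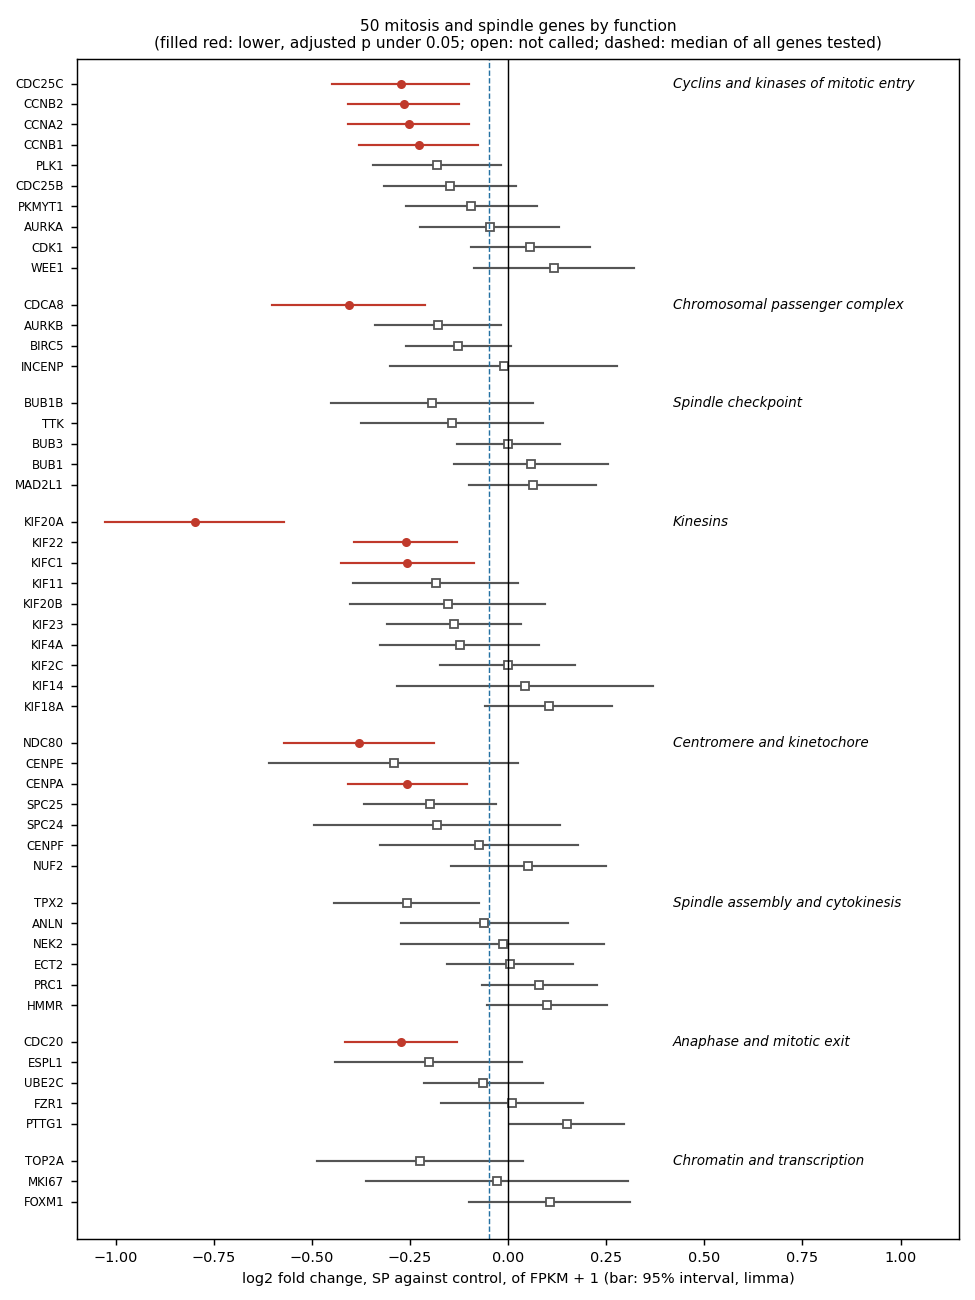
Log2 fold change of FPKM + 1 (SP against control) for the 50 mitosis and spindle genes, ordered by function, with the 95% interval from limma as a bar. Filled red circles are the 11 genes called lower, open squares the 39 not called, and the dashed line is the median of all genes tested (-0.05). KIF20A at -0.80 stands well below the other members, of which the next is CDCA8 at -0.41.

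The promoters of these genes are known to carry a cell cycle genes homology region (CHR), which MuvB complexes bind, and CCAAT boxes, which NF-Y binds. RefSeq promoter sequences (GRCh38.p14, 250 bases before to 50 bases after the start) were at hand for 41 of the 50 genes. The letters TTTGAA or TTCGAA on either strand, as forms of the CHR, were in a promoter of 32 of these 41 genes (78.0%), and in 15.2% of the 9823 tested genes with a promoter in the same table. The letters CCAAT on either strand were in 34 (82.9%), against 43.7% of tested genes, and both were in 27 (65.9%), against 6.42%. Over all 35116 promoters of the table, of 27305 genes, 16.4% held the CHR letters, 34.6% CCAAT and 6.38% both. A gene with several promoters was counted once if any of them held the letters. Among the 11 genes lower with SP the CHR letters were in 8 and CCAAT in 10, and among the 30 other members with a promoter they were in 24 and in 24. A promoter with 2 or more CCAAT was found for 8 of the 11 (72.7%), for 13 of the 30 (43.3%) and for 16.6% of tested genes, and no test of these differences was run. The 150 bases before the RefSeq start are shown for 4 genes that were lower (CCNB2, CDCA8, CDC20 and KIF20A) and 2 that were not called (PLK1 and PRC1), 5′ to 3′ along the gene, with the CHR and CCAAT letters of either strand in capitals.
CCNB2, chr15:59104996-59105145, plus strand: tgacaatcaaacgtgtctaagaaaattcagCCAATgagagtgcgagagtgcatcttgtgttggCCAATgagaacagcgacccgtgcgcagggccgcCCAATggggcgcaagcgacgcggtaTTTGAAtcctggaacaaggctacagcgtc
CDCA8, chr1:37692366-37692515, plus strand: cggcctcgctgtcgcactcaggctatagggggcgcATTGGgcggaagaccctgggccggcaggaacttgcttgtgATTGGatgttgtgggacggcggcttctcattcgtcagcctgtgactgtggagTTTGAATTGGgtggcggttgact
CDC20, chr1:43358831-43358980, plus strand: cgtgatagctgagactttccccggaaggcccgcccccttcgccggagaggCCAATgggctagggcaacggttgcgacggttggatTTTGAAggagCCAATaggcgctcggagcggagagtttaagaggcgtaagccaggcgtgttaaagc
KIF20A, chr5:138178962-138179111, plus strand: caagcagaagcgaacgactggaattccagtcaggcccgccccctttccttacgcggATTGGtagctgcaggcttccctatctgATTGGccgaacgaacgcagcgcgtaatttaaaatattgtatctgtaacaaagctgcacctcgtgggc
PLK1, chr16:23678739-23678888, plus strand: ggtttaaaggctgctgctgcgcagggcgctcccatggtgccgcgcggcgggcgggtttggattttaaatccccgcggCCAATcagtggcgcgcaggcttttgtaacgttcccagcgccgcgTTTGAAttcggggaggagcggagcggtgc
PRC1, chr15:90994536-90994685, minus strand: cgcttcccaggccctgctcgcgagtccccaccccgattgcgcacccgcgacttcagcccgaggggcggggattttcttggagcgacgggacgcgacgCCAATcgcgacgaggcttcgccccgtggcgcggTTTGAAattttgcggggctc
CCNB2 holds 3 CCAAT boxes in this window, beginning at positions -120, -87 and -54 from the start, and CHR letters at -29. PLK1 has the same order with a single CCAAT at -73 and CHR letters at -29, and PRC1 with CCAAT at -53 and CHR letters at -20. In CDCA8 the CHR letters at -23 share 1 base with an inverted CCAAT at -18. In CDC20 the CHR letters at -65 lie between CCAAT at -100 and at -55. KIF20A, the member with the largest decrease, holds inverted CCAAT at -94 and -67, and neither TTTGAA nor TTCGAA is in its 300 bases. No other letters were searched as a CHR, so the absence of a CHR from this promoter is not shown.

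Among the 10 cyclins and kinases of mitotic entry, the 3 cyclins and CDC25C fell, and the other 6 genes, CDK1 among them, were not called. The share called lower over all genes tested was 12.0%. With the replicate number as a block, the calls of CCNB1 and CDC25C were lost (limma adjusted p = 0.0588 and 0.0568). CCNB1, the mitotic cyclin B1 (gene ID 891, chromosome 5 of GRCh38 from 69167010 to 69178245 in GENCODE 29), was at 173, 188 and 180 FPKM in the control and at 164, 149 and 149 FPKM in the SP libraries. Each SP library lay below each control library, with a log2 fold change of -0.23 (with a standard error of 0.07, limma adjusted p = 0.0431). CCNB2, cyclin B2, was at 83.2, 84.0 and 79.7 FPKM in control and 71.9, 65.9 and 67.0 FPKM in SP libraries (log2 fold change -0.27, limma adjusted p = 0.0200). CCNA2, cyclin A2, which acts in S and G2 phase, was at 90.7, 92.4 and 89.6 FPKM and 82.5, 74.2 and 71.9 FPKM (-0.25, limma adjusted p = 0.0334). In all 3 cyclins the first SP library was the SP library nearest to the controls.
CDC25C, a phosphatase that activates CDK1, was at 15.8, 17.5 and 17.5 FPKM in control and 14.7, 13.6 and 13.1 FPKM in SP libraries (-0.27, limma adjusted p = 0.0386). CDK1 itself (gene ID 983, chromosome 10 from 60778331 to 60794852) was at 98.8, 110 and 111 FPKM and 114, 110 and 108 FPKM, and the groups overlapped. Its log2 fold change was 0.06, with a 95% interval from -0.10 to 0.21 (limma adjusted p = 0.571). PLK1, a kinase of mitotic entry and spindle assembly, was at 93.3, 103 and 91.7 FPKM and 87.6, 79.4 and 86.9 FPKM. Its SP libraries lay below its controls, but it was not called (-0.18, 95% interval -0.34 to -0.02, limma adjusted p = 0.105). The remaining 4, the phosphatase CDC25B, the inhibitory kinases WEE1 and PKMYT1 and the kinase AURKA, had log2 fold changes between -0.15 (CDC25B) and 0.12 (WEE1) and were not called.

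**Figure D2:**
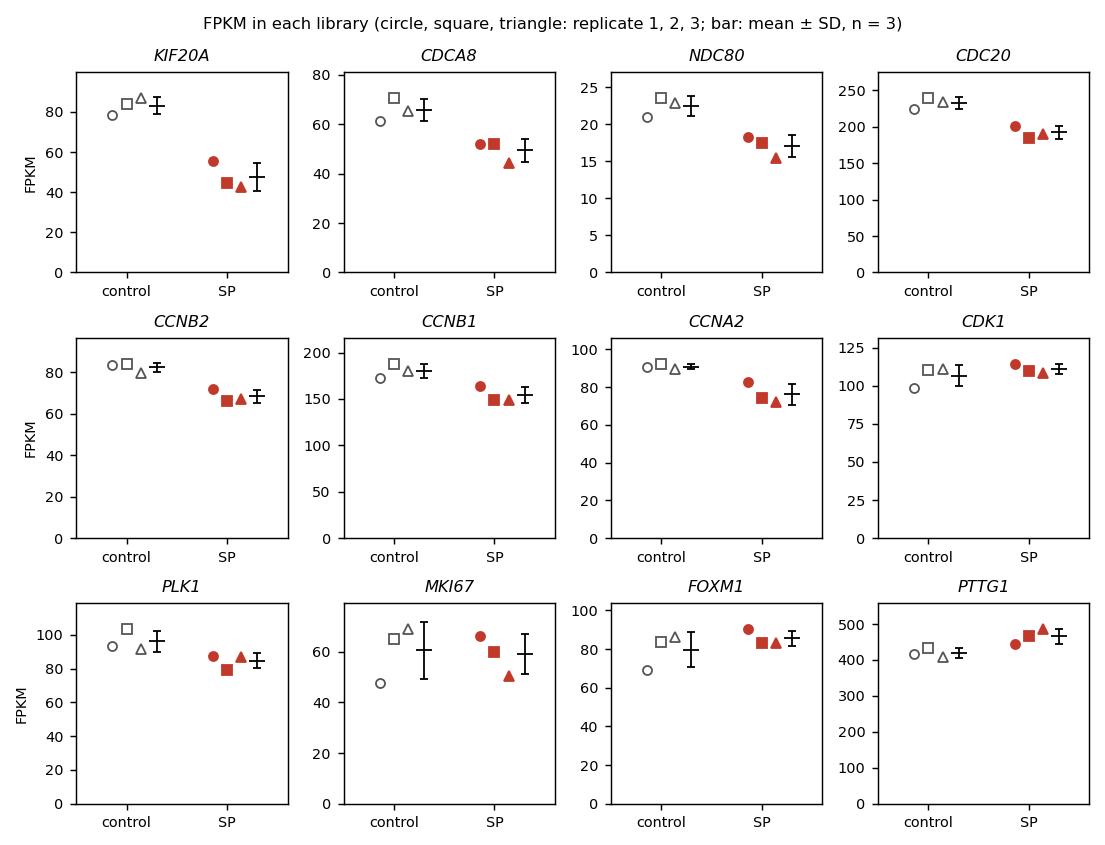
FPKM (linear axis from 0) of 12 members in each library, with control libraries as open and SP libraries as filled symbols, replicate numbers by shape and the mean ± SD of 3 libraries beside them. KIF20A, CDCA8, NDC80, CDC20 and the 3 cyclins are lower in every SP library than in any control library, CDK1, MKI67 and FOXM1 overlap, and PTTG1 is higher in every SP library.

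Ratios of 2 members within a library do not depend on how libraries were scaled against each other. For 6 pairs of related members, chosen after their values were seen, the ratio was compared between groups. Each pair sets a member called lower against a member not called. A gap between groups therefore largely follows from the choice of pairs and is no added support for the calls. CCNB1 to CDK1 was 1.75, 1.70 and 1.63 in the control and 1.43, 1.36 and 1.37 in the SP libraries, 18.1% lower on average. CCNB2 to CDK1 was 20.5% and CCNA2 to CDK1 19.6% lower, and none of these 3 ratios overlapped between groups. The ratio of WEE1, which inhibits CDK1, to CDC25C, which activates it, was 0.853, 0.678 and 0.725 in control and 1.05, 0.975 and 0.978 in SP libraries, 33.0% higher. CDC20 to FZR1, the APC/C activators of early and late mitosis, was 17.9% lower, and KIF20A to KIF23, kinesins of the central spindle, was 37.1% lower. In each of the 6 pairs the groups did not overlap, with p = 0.1 by a two-sided exact permutation test over libraries (0.1 when adjusted over the 6), which is the smallest value that 3 against 3 libraries allow and cannot pass 0.05.

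**Figure D3:**
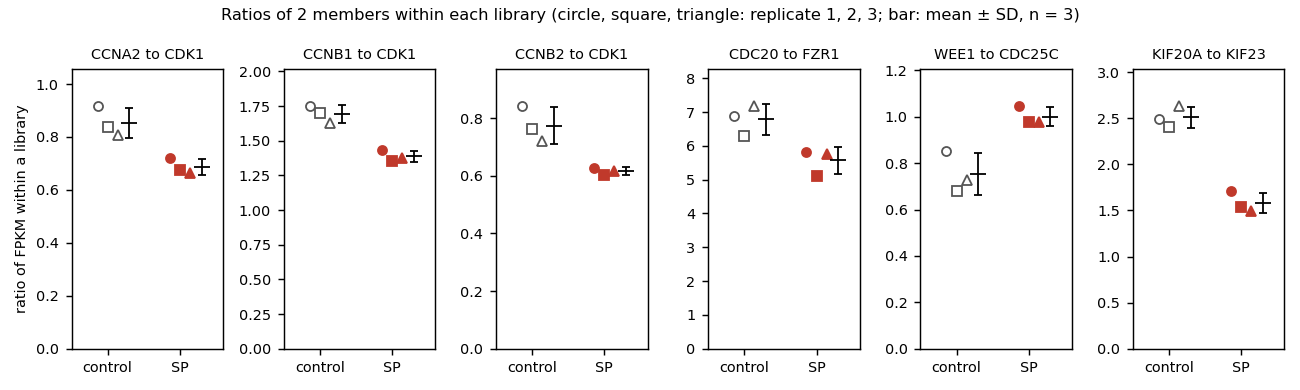
Ratio of the FPKM of 2 members within each library (linear axis from 0), control as open and SP as filled symbols, replicate numbers by shape, with the mean ± SD of 3 libraries. The pairs were chosen after their values were seen. The 3 cyclins relative to CDK1, CDC20 relative to FZR1 and KIF20A relative to KIF23 are lower in every SP library than in any control library, and WEE1 relative to CDC25C is higher, at 0.975 or more with SP and 0.853 or less in control.

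Of the 10 kinesins, the motor proteins of the spindle, 3 fell and 7 were not called (12.0% of all genes tested were lower). KIF20A, which works at the central spindle in cytokinesis, showed the largest decrease of any member (gene ID 10112, chromosome 5 from 138178719 to 138187715). It was at 78.4, 84.2 and 86.9 FPKM in the control and at 55.5, 44.8 and 42.6 FPKM in the SP libraries. This was 83.2 ± 4.30 against 47.6 ± 6.87 FPKM (SD, n = 3 each), a log2 fold change of -0.80 (with a standard error of 0.10, limma adjusted p = 0.00194).
The gap between the groups was larger than the spread within either, and KIF20A stayed called in all 15 alternative settings (limma adjusted p = 0.000988 to 0.0125, log2 fold change -0.91 to -0.72). Its exons share 132 bases with BRD8 and 68 bases with CDC23 on the other strand, out of 3958. How strand was handled is not stated in the sources used here, and these neighbours were not called (BRD8 -0.14, limma adjusted p = 0.236, CDC23 -0.20, limma adjusted p = 0.116). KIF22, a chromokinesin, was at 44.9, 47.0 and 44.9 FPKM and 37.5, 38.0 and 38.2 FPKM (-0.26, limma adjusted p = 0.0169), with little spread among SP libraries. KIFC1, a minus-end-directed kinesin that bundles spindle poles, was at 57.1, 61.9 and 56.9 FPKM and 51.2, 51.0 and 44.7 FPKM (-0.26, limma adjusted p = 0.0421).
The other 7 kinesins had log2 fold changes between -0.18 (KIF11) and 0.10 (KIF18A). KIF2C, a microtubule depolymerase at centromeres, had nearly equal means of 97.5 ± 7.24 and 97.3 ± 5.57 FPKM (SD, n = 3 each), with a 95% interval of its log2 fold change from -0.17 to 0.17. KIF18A, which dampens chromosome movement, was higher in every SP library than in any control library by a small amount (11.8 ± 0.622 and 12.7 ± 0.163 FPKM, limma adjusted p = 0.320). KIF4A has a near copy, KIF4B, which was listed at a mean of 0.06 FPKM.

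The chromosomal passenger complex corrects attachments at the centromere and then guides cytokinesis. In it 1 of 4 subunits fell, against 12.0% of all genes tested. CDCA8, the borealin subunit (gene ID 55143, chromosome 1 from 37692418 to 37709719), was at 61.5, 70.6 and 65.4 FPKM in control and 52.2, 52.0 and 44.2 FPKM in SP libraries. Its log2 fold change was -0.41 (with a standard error of 0.09, limma adjusted p = 0.0140), the largest decrease after KIF20A. The kinase subunit AURKB was at 160, 168 and 146 FPKM and 144, 141 and 133 FPKM (-0.18, 95% interval -0.34 to -0.02, limma adjusted p = 0.105, and 0.0445 without the third control library).
BIRC5, the survivin subunit, was at 69.8, 72.9 and 69.7 FPKM and 67.2, 63.6 and 63.5 FPKM (-0.13, limma adjusted p = 0.153). For AURKB and BIRC5 the SP libraries lay below the controls without reaching the call. The scaffold INCENP had means of 15.6 ± 2.30 and 15.4 ± 2.08 FPKM (SD, n = 3 each), well within its spread.

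In the centromere and kinetochore group, 2 of 7 genes fell, against 12.0% of all genes tested. NDC80, which binds microtubules at the outer kinetochore (gene ID 10403, chromosome 18 from 2571511 to 2616635), was at 21.0, 23.5 and 22.9 FPKM in control and 18.3, 17.4 and 15.4 FPKM in SP libraries (log2 fold change -0.38 with a standard error of 0.08, limma adjusted p = 0.0167). CENPA, the histone variant that marks centromeres, was at 24.9, 26.6 and 27.0 FPKM and 21.3, 21.3 and 22.7 FPKM (-0.26, limma adjusted p = 0.0296). CENPA shares 138 exonic bases with SLC35F6 on the same strand, which was not called (-0.05, limma adjusted p = 0.694).
The partners of NDC80 in its complex were not called. SPC25 was at 29.8, 31.5 and 29.9 FPKM and 27.9, 27.1 and 24.1 FPKM (-0.20, 95% interval -0.37 to -0.03, limma adjusted p = 0.0868), and SPC24 had a log2 fold change of -0.18 (limma adjusted p = 0.368). NUF2, which pairs directly with NDC80, had one of 0.05 with a 95% interval from -0.15 to 0.25 (limma adjusted p = 0.699). The kinetochore motor CENPE (-0.29, limma adjusted p = 0.163) and CENPF (-0.07, limma adjusted p = 0.659) were not called, and the groups overlapped.

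None of the 5 spindle checkpoint genes and none of the 6 genes of spindle assembly and cytokinesis was called, and at an unadjusted p under 0.05 there was none in the first and 1 (TPX2) in the second group. BUB1B, the checkpoint protein BubR1, was at 27.4, 33.4 and 32.7 FPKM and 30.9, 27.2 and 23.4 FPKM (-0.19, limma adjusted p = 0.248). TTK, the checkpoint kinase MPS1, was at 25.8, 30.2 and 33.4 FPKM and 28.7, 27.1 and 24.7 FPKM (-0.14, limma adjusted p = 0.338). MAD2L1, which encodes the checkpoint effector MAD2, was at 19.1, 20.9 and 21.9 FPKM and 21.6, 21.5 and 21.6 FPKM (0.06, limma adjusted p = 0.557).
All 3 overlapped between groups, as did BUB1 and BUB3. BUB3 was the most even, at 126 ± 2.52 and 126 ± 4.52 FPKM (SD, n = 3 each), with a 95% interval of its log2 fold change from -0.13 to 0.13. TPX2, which activates AURKA and nucleates spindle microtubules, was at 155, 158 and 166 FPKM and 148, 132 and 121 FPKM. Its log2 fold change of -0.26 was as large as those of several called genes, and its limma adjusted p = 0.0544 lay just above the threshold (0.0246 to 0.197 over the alternatives, the lowest without the first SP library). PRC1, a bundler of central spindle microtubules that shares 3181 of its 5525 exonic bases with a gene on the same strand not analysed here, was at 65.5, 71.7 and 71.0 FPKM and 76.5, 72.9 and 70.8 FPKM (0.08, limma adjusted p = 0.404). HMMR, a spindle protein also known as RHAMM, was at 21.6, 22.9 and 23.8 FPKM and 25.1, 23.5 and 24.8 FPKM (0.10, limma adjusted p = 0.318). ANLN, ECT2 and NEK2 had log2 fold changes between -0.06 (ANLN) and 0.00 (ECT2).

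Of 5 genes of anaphase and mitotic exit, CDC20 fell and the most abundant were not called (12.0% of all genes tested were lower). CDC20 (gene ID 991, chromosome 1 from 43358955 to 43363203) was at 224, 239 and 234 FPKM in control and 201, 185 and 190 FPKM in SP libraries (log2 fold change -0.27 with a standard error of 0.06, limma adjusted p = 0.0190). Its counterpart FZR1, also known as CDH1 of the APC/C, had means of 34.4 ± 3.13 and 34.6 ± 1.63 FPKM (SD, n = 3 each), and shares 70 exonic bases with MFSD12 on the other strand, which was higher with SP (log2 fold change 0.46, limma adjusted p = 0.00772). Pseudogenes named after CDC20 and CCNB2 and the near copies of PTTG1 (PTTG2 and PTTG3P) were not analysed here, and how reads shared with them were assigned is not known. PTTG1, the gene of securin, was at 417, 434 and 407 FPKM and 446, 465 and 485 FPKM.
This was a log2 fold change of 0.15 (95% interval 0.00 to 0.30, limma adjusted p = 0.129), the largest positive one of the 50. PTTG1 was called higher with equal totals (limma adjusted p = 0.0497) and after quantile normalization (limma adjusted p = 0.0259), within a range of 0.0142 to 0.311 over the alternatives. ESPL1, the protease separase that securin inhibits, was at 16.0, 19.3 and 21.1 FPKM and 17.2, 16.1 and 15.1 FPKM (-0.20, limma adjusted p = 0.194, and 0.0452 without the first control library). UBE2C, the ubiquitin-conjugating enzyme of the APC/C, was abundant in both groups at 461 ± 23.9 and 441 ± 14.1 FPKM (SD, n = 3 each), and was not called.

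The markers of proliferation MKI67 and TOP2A and the regulator FOXM1 were not called, and their intervals were among the wider ones. MKI67, which encodes the Ki-67 antigen of cycling cells, was at 47.6, 65.2 and 68.9 FPKM in control and 66.3, 60.1 and 50.5 FPKM in SP libraries, a log2 fold change of -0.03 with a 95% interval from -0.36 to 0.31 (limma adjusted p = 0.907). TOP2A, the topoisomerase that untangles sister chromatids, was at 93.8, 115 and 121 FPKM and 104, 95.7 and 82.1 FPKM (-0.22, 95% interval -0.49 to 0.04, limma adjusted p = 0.193). FOXM1, a transcription factor of G2/M genes, was at 69.3, 83.6 and 86.4 FPKM and 90.2, 83.3 and 83.2 FPKM (0.11, 95% interval -0.10 to 0.31, limma adjusted p = 0.426). FOXM1 shares 781 exonic bases with ITFG2 on the other strand (ITFG2 -0.25, limma adjusted p = 0.137).

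Within groups, many members had their lowest or highest value in the same library. How often this held over all genes was not counted, so it is not shown to be particular to the members. The median FPKM of all listed genes also differed, at 5.455, 5.63 and 5.875 in the control and 5.71, 5.685 and 5.77 in the SP libraries. The first control library was the lowest of the 3 controls in 38 of the 50 members and the highest in 1 (WEE1). The first SP library was the highest of the 3 SP libraries in 36 members, and the third SP library was the lowest in 34. The summed FPKM of the 50 members was 3674, 4006 and 3861 in the control libraries and 3699, 3566 and 3492 in the SP libraries, so that the sums of the first control and first SP library were nearly equal and the groups overlapped. As a share of all listed FPKM the members took 0.483%, 0.559% and 0.574% in control and 0.539%, 0.524% and 0.507% in SP libraries. The median coefficient of variation of a member was 6.61% among control and 5.84% among SP libraries. Without the first control library the members' median log2 fold change was -0.17 with 10 lower (9 of the 11 and ESPL1), and without the third SP library it was -0.09 with 5 lower.

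The calls differed in how well they held. Of 15 alternative settings, CDCA8 was called lower in 13, NDC80 in 12, KIF22 and CCNB2 in 11 each and CDC20 in 9. CENPA was called in 7, CCNA2 and CDC25C in 5 each, CCNB1 in 3 and KIFC1 in 2. The block on the replicate number left 9 members. Without the third SP library the calls of the 3 cyclins, CDC25C, KIFC1 and CDC20 were lost, without the third control library those of CCNB1, CDC25C, KIFC1 and CENPA, without the first control library those of CCNA2 and KIFC1, and without the first SP library those of KIFC1 and CENPA. Calls were also gained, of ESPL1 without the first control library, of AURKB without the third control library and of TPX2 without the first SP library. For the 11 genes the log2 fold change was below 0 in all 15 settings. In each of them every SP library lay below every control library. Leaving out a library, another pseudocount, no filter, no trend or the block could therefore not change the sign, and only the scalings could.

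**Figure D4:**
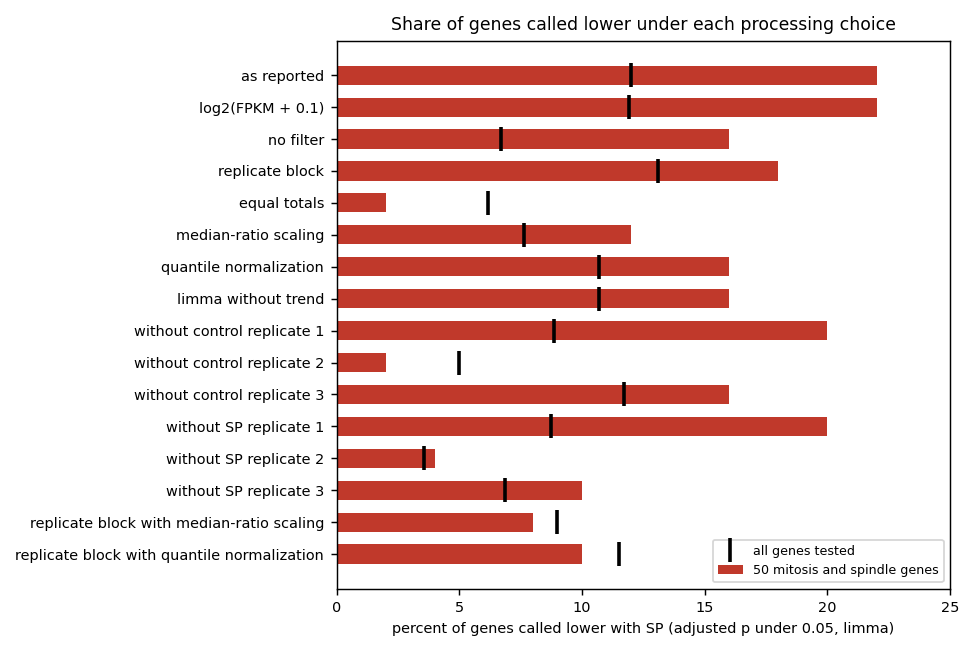
Percent of genes called lower with SP (horizontal axis) under the reported settings and 15 alternatives, as bars for the 50 mitosis and spindle genes and as black marks for all genes tested. The members' share is 22.0% against 12.0% as reported, and with equal totals a single member is left against 6.18% of all genes.

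Other genes of mitosis, from 7 lists that leave out the 50, were mostly not called either. Of 136 genes, all tested, 17 (12.5%) were lower and 2 were higher, close to the 12.0% of all genes tested for the lower and under the 8.57% for the higher. At an unadjusted p under 0.05, 39 were lower and 6 higher, against 2705 and 1738 of all 12127 genes tested. The 136 genes had a median log2 fold change of -0.065, against -0.05 for all genes tested. None of 8 condensin and none of 13 cohesin genes was called, with 1 lower (NCAPD2) and 1 higher (CDCA5) at an unadjusted p under 0.05. NCAPD2 and SMC4, condensin subunits, had log2 fold changes of -0.31 and -0.14 (limma adjusted p = 0.0732 and 0.160), and CDCA5 (sororin) and the cohesin protector SGO1 had 0.18 and 0.21 (limma adjusted p = 0.115 and 0.142).
Of 16 genes of the APC/C and its partners, 3 fell, namely ANAPC7, ANAPC15 and the APC/C inhibitor FBXO5. ANAPC7 fell from 43.7 ± 0.950 to 34.6 ± 2.01 FPKM (SD, n = 3 each, limma adjusted p = 0.0111, and 0.0603 without the second SP library). In the same list UBE2S, which extends the ubiquitin chains that UBE2C begins, rose from 220 ± 27.5 to 328 ± 39.4 FPKM (log2 fold change 0.57, limma adjusted p = 0.0120, 0.0529 without the second SP library). Of 34 other kinetochore genes 5 fell, among them MIS18A, which helps to load CENPA, and CENPH (log2 fold changes -0.44 and -0.39, limma adjusted p = 0.00552 and 0.0217). The other 3 were CENPT, NSL1 and OIP5 (-0.35 to -0.32). Of 34 other spindle and cytokinesis genes 6 fell. They were HAUS4 and HAUS1, subunits of the augmin complex, which branches spindle microtubules (log2 fold changes -0.39 and -0.29, limma adjusted p = 0.00922 and 0.0191), and HAUS5, HAUS8, CDCA3 and PSRC1 (-0.37 to -0.24).
None of 12 other genes of mitotic entry and the G2 checkpoint was called (3 lower at an unadjusted p under 0.05), with CHEK2 and ENSA at -0.34 and -0.24 (limma adjusted p = 0.0511 and 0.0580). Of 19 E2F, DREAM and B-MYB regulators 3 fell and 1 rose. E2F1, an activator of G1/S genes, rose from 32.4 ± 0.974 to 42.5 ± 2.84 FPKM (SD, n = 3 each, log2 fold change 0.38, limma adjusted p = 0.00838). RBBP4, a MuvB subunit, and MYBL2, the gene of B-MYB, fell (-0.35 and -0.25, limma adjusted p = 0.00954 and 0.0442), as did the repressor E2F8 (-0.34). ANAPC15, FBXO5, CENPT, NSL1, OIP5, HAUS5, HAUS8, CDCA3, PSRC1, MYBL2 and E2F8 are named after their values were seen. CENPH was not called without the second control library (limma adjusted p = 0.0834) or the first or the third SP library (0.0604 and 0.0636), nor HAUS1 without the second or the third SP library (0.0559 and 0.0597). The 17 lower calls in these lists were 5 with equal totals and 6 without the second control library. They were 4 without the second SP library and 7 without the third SP library. Of all genes tested, 6.18%, 4.99%, 3.54% and 6.85% were lower in these settings. The 2 higher calls were 4 without the third control library and 1 without the second SP library, where 9.28% and 3.94% of all genes were higher.

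Genes of DNA replication and G1/S were the closest group by function. Of 46 genes 10 (21.7%) were lower and 1 (RRM2, named after its values were seen) was higher. Over all genes tested, 12.0% were lower and 8.57% were higher. The 46 genes had a median log2 fold change of -0.13, the same as for the 50 mitosis and spindle genes, against -0.05 for all genes. POLD2, a subunit of DNA polymerase delta, and the helicase subunit MCM3 fell (log2 fold changes -0.33 and -0.37, limma adjusted p = 0.00754 and 0.00858). At an unadjusted p under 0.05, 20 of the 46 were lower, against 15 of the 50 and 2705 of all 12127 genes tested. In 22 of the 46 (47.8%) every SP library lay below every control library, against 17 of the 50 (34.0%) and 26.1% of all genes tested. The 10 lower calls were 2 with equal totals, 4 without the second control library, 3 without the second SP library and 4 without the third SP library. In these settings 6.18%, 4.99%, 3.54% and 6.85% of all genes tested were lower. No test of a difference between these lists was run.

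**Figure D5:**
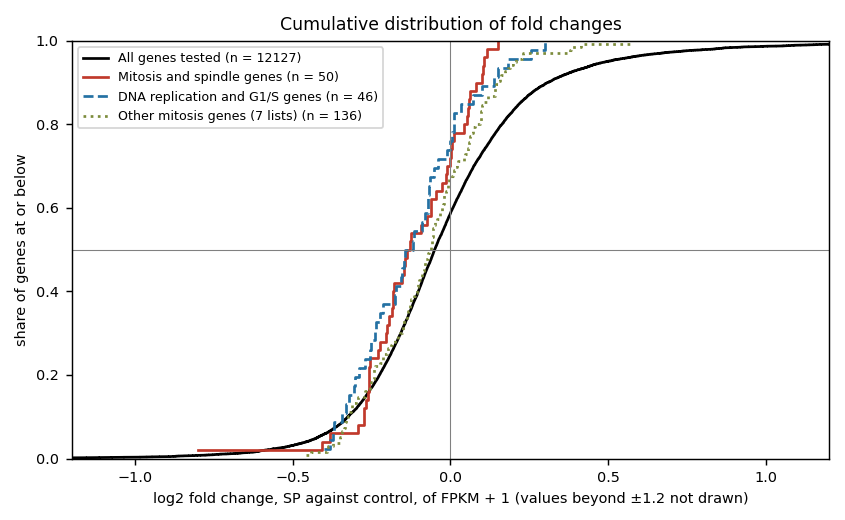
Cumulative share of genes (vertical axis) by log2 fold change of FPKM + 1 for all 12127 genes tested, the 50 mitosis and spindle genes, 46 DNA replication and G1/S genes and 136 other mitosis genes. The curves of the 50 mitosis and spindle genes and of the replication genes run together, with medians at -0.13, to the left of all genes (-0.05). The 136 other mitosis genes have a median of -0.065, close to that of all genes. Beyond KIF20A none of the 50 lies below -0.41 or above 0.15.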

How the data were processed

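Libraries of NK-1R-overexpressing HK-2 cells (3 PBS, 3 SP) were sequenced by the authors on the DNBSEQ platform as paired ends. Cleaned reads were mapped with HISAT to GRCh38.p13 and quantified per gene with RSEM. The submitters' processing notes also name HISAT2 and Bowtie2. Per library, the authors deposited an FPKM value with 2 decimals for each of 16250 genes. No source used here gives the rule for listing a gene or the strand handling. The files of single libraries held the same values as the series table.

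SP was tested against control on log2(FPKM + 1) in limma 3.58.1 (R 4.3.3) with the mean-variance trend, keeping a gene if 3 libraries reached an FPKM of 0.5, and p-values were adjusted over the 12127 genes tested. A count test was not used, since FPKM are not counts. The script was tested on simulated data. The members and lists were chosen with earlier results of these data known. Named members are 10 fixed genes, those past 2-fold and the 3 with the smallest p in each function group, and in the other lists the 2 with the smallest p. Alternatives were another pseudocount (0.1), no filter, 3 scalings, no trend, each library left out and the replicate number as a block, and, chosen after seeing the data, the block together with 2 scalings. Both groups carry replicate numbers 1 to 3 in the labels, and deviations from group means correlated between same-numbered libraries (r = 0.165, 0.223 and 0.170 across genes). The libraries may thus be paired, although no source says what the numbers stand for. The reported calls come from the fit without pairing, and the block on the replicate number was an alternative, with 9 members lower. Promoters are from RefSeq (GRCh38.p14) and gene positions from GENCODE 29 (GRCh38). Values after ± are SDs over 3 libraries.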

Additional observations from a re-analysis of the deposited data

How the results depend on the processing

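The count of 11 members called lower was 11 with a pseudocount of 0.1, 9 with the replicate block and 8 with no filter, after quantile normalization and without the trend. It was 6 after median-ratio scaling, 1 with equal totals, and 1 to 10 with each library left out. The share of all genes called lower was 7.61%, 6.18% and 3.54% to 11.7% in these settings. Chosen after seeing the data, the block with median-ratio scaling gave 4 and the block with quantile normalization 5. The count called higher, 0 as reported, was 1 (PTTG1) with equal totals, after quantile normalization and with the block together with quantile normalization, and 0 to 0 with each library left out. The members' median log2 fold change was -0.17 to -0.07 over all settings. No member passed 2-fold in any of them. In the 7 other mitosis lists, the 2 higher calls were 4 after median-ratio scaling and after quantile normalization, 5 with the block and median-ratio scaling, and 1 to 4 with each library left out. The 17 lower calls there were 10 with no filter, 5 with equal totals, 9 after median-ratio scaling and 4 to 15 with each library left out. The replicate block changed the call of no member other than CCNB1 and CDC25C. The cause of these changes was not tested. All 3 scalings use the same FPKM, and which of them is closest to the RNA content of the cells cannot be told from these values. With 3 libraries a group, the 95% intervals of single members reached 0.13 to 0.33 on either side on the log2 scale. An interval that left out 0 was not enough for a call, as in PLK1, AURKB, SPC25 and TPX2. Changes within this reach, and somewhat larger ones, could thus go uncalled here.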
